A study of Mus musculus with 8 samples.

Results

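The genes described here are 48 genes that mouse embryonic fibroblasts and the extracellular matrix they lay down are known for, and they were read in 8 embryonic stem cell (ESC) lines that differ in the gene Zfp281. They were taken by gene symbol, with Ccn1 counted as Cyr61 and Ccn2 as Ctgf, and 46 of the 48 had a value of their own among 18193 genes measured. The probe sets of Loxl2 also list another gene, so Loxl2 was given no value, and Fbn1 was not analysed here. Where the array carried several probe sets (groups of short probes for a transcript) for a gene, the one with the highest mean over the 8 arrays was used.

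The lines were 3 wild-type (3, 3.2 and 3.3), 2 heterozygous (5 and 3.1) and 3 Zfp281 deficient, called null (7, 3.34 and 3.38), with 1 Affymetrix mouse genome array each and no further treatment. In the mutant allele the whole of Zfp281, a zinc finger transcription factor gene, was replaced by a floxed neomycin cassette, and the sources used here do not say for each line whether the cassette remained. Mice carrying it were mated, and ESC lines were derived from their blastocysts, so each line comes from 1 embryo and is 1 replicate of its genotype. The lines of every genotype were kept on primary mouse embryonic fibroblasts in medium with 15% FBS and 1000 U per ml of the cytokine LIF, and no step that removes the fibroblasts before RNA isolation is described for these arrays. The values are log2 signals normalised together by robust multi-array analysis (RMA). In every list of 8 values below, the lines stand in the order wild-type 3, 3.2 and 3.3, heterozygous 5 and 3.1, null 7, 3.34 and 3.38.

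Feeder fibroblasts are growth-arrested cells that give ESCs a surface to attach to and secrete matrix and factors that hold them undifferentiated. A fibroblast spins fibrillar collagens through its secretory pathway with a dedicated chaperone, cross-links them outside the cell, pulls on them through actin cables and reads the tension back through CCN proteins and other tension-responsive genes. Many of these genes are also used by other cells, ESCs and early differentiating cells among them, so a level in a mixed culture has no single source. In such bulk RNA fewer fibroblasts and less RNA of these genes per cell cannot be told apart.

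The ESC markers Pou5f1, Sox2 and Nanog were called present in all 8 lines, and the fibroblast and matrix genes were read in the same RNA. Of the 46 members, 32 were called present in all 8 lines by the authors' detection calls, a member counting as present in a line when any of its probe sets was. By the calls of only the probe set used for its values, 37 were present in every line of at least 1 genotype, and these are called detected. Cnn1 and Myl9, a smooth muscle calponin and a myosin light chain, were present in no line. Zfp281 itself read 6.88, 7.93, 6.72, 6.69, 6.97, 3.64, 5.06 and 5.23, so each null line lay below each other line, with a difference of -2.54 between null and wild-type (SE 0.45, limma adjusted p = 0.0467). The 3′ minus 5′ signal of the Gapdh and actin control probes, a sign of how far the labelled RNA reaches, was 4.23 to 4.86 log2 units in the wild-type lines, 4.49 to 4.80 in the heterozygous lines and 2.68 to 3.71 in the null lines. The share of probe sets called present ran from 28.4% in heterozygous line 3.1 and 30.4% in wild-type line 3.2 to 35.3% in null line 3.38.

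The first question was whether null ESC cultures held less fibroblast and matrix RNA than wild-type ones. Cyr61, Cnn2, Cald1, Ctgf and Tagln read more than 2-fold lower in the null mean, all of them genes of the actin cytoskeleton or of its tension response, while no member passed the limma test after adjustment over all 18193 genes. The mean over null lines was below that over wild-type lines for 38 of 46 members, and above it for 8, where 53.2% of all genes were lower and 46.8% higher. Over the members the median difference was -0.45 log2 units, and over all genes it was -0.01. Those 5 members past 2-fold lower, and 0 past 2-fold higher, stand beside 1.10% and 1.37% of all genes.

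No member was called at an adjusted p under 0.05 in limma, where 0.440% of all genes were called lower and 0.693% higher, and the smallest adjusted p of a member was 0.0564, for Serpinh1. At an unadjusted p under 0.05 limma gave 14 members lower and 1 higher, against 7.71% and 8.67% of all genes. Every null line lay below every wild-type line for 9 members, Col5a1, Fstl1, Timp3, Cald1, Serpinh1, Ctgf, Cyr61, Igfbp3 and Cav1, and above for 2, Timp1 and Pdgfrb. Such separation held for 11.2% of all genes in the lower direction and 11.1% in the higher one. Among 7306 detected genes, those present in every line of at least 1 genotype, 15.8% were separate lower and 17.8% higher. Of these, 192 (2.63%) were past 2-fold lower and 227 higher, and limma gave 1104 lower and 1215 higher at an unadjusted p under 0.05. The 37 detected members had 8 separate lower and 1 higher, and 5 past 2-fold lower and 0 higher. In limma 12 of them were lower at that unadjusted p and 1 higher. The count past 2-fold among the 46 members turned on single lines. Without wild-type line 3.2 it was 0, without null line 7 it was 2, without null line 3.34 it was 9 and without wild-type line 3.3 it was 8. The plot of all members by line shows where these readings lie.

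The study describes null line 7 with wild-type line 3, and null line 3.38 with wild-type line 3.3, as pairs from the same litters. Taken within these pairs, the members had a median null minus wild-type difference of -0.51 between lines 7 and 3 and of 0.01 between lines 3.38 and 3.3. Of the 46 members, 33 were lower in the null line of the first pair and 23 in that of the second. Both pairs were lower for 18 members and higher for 8, against 31.8% and 28.1% of all genes, and 20 members went opposite ways. A limma fit of these 4 lines with litter as a block, chosen after the data were seen, called Cald1 and Tpm2 lower and no member higher, where 0.599% of all genes were called lower and 0.379% higher. In that fit 6 members were past 2-fold lower, Cnn2, Lgals1, Cyr61, Tpm2, Cald1 and Tpm1, and 0 higher, against 1.20% and 1.40% of all genes.

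**Figure D1:**
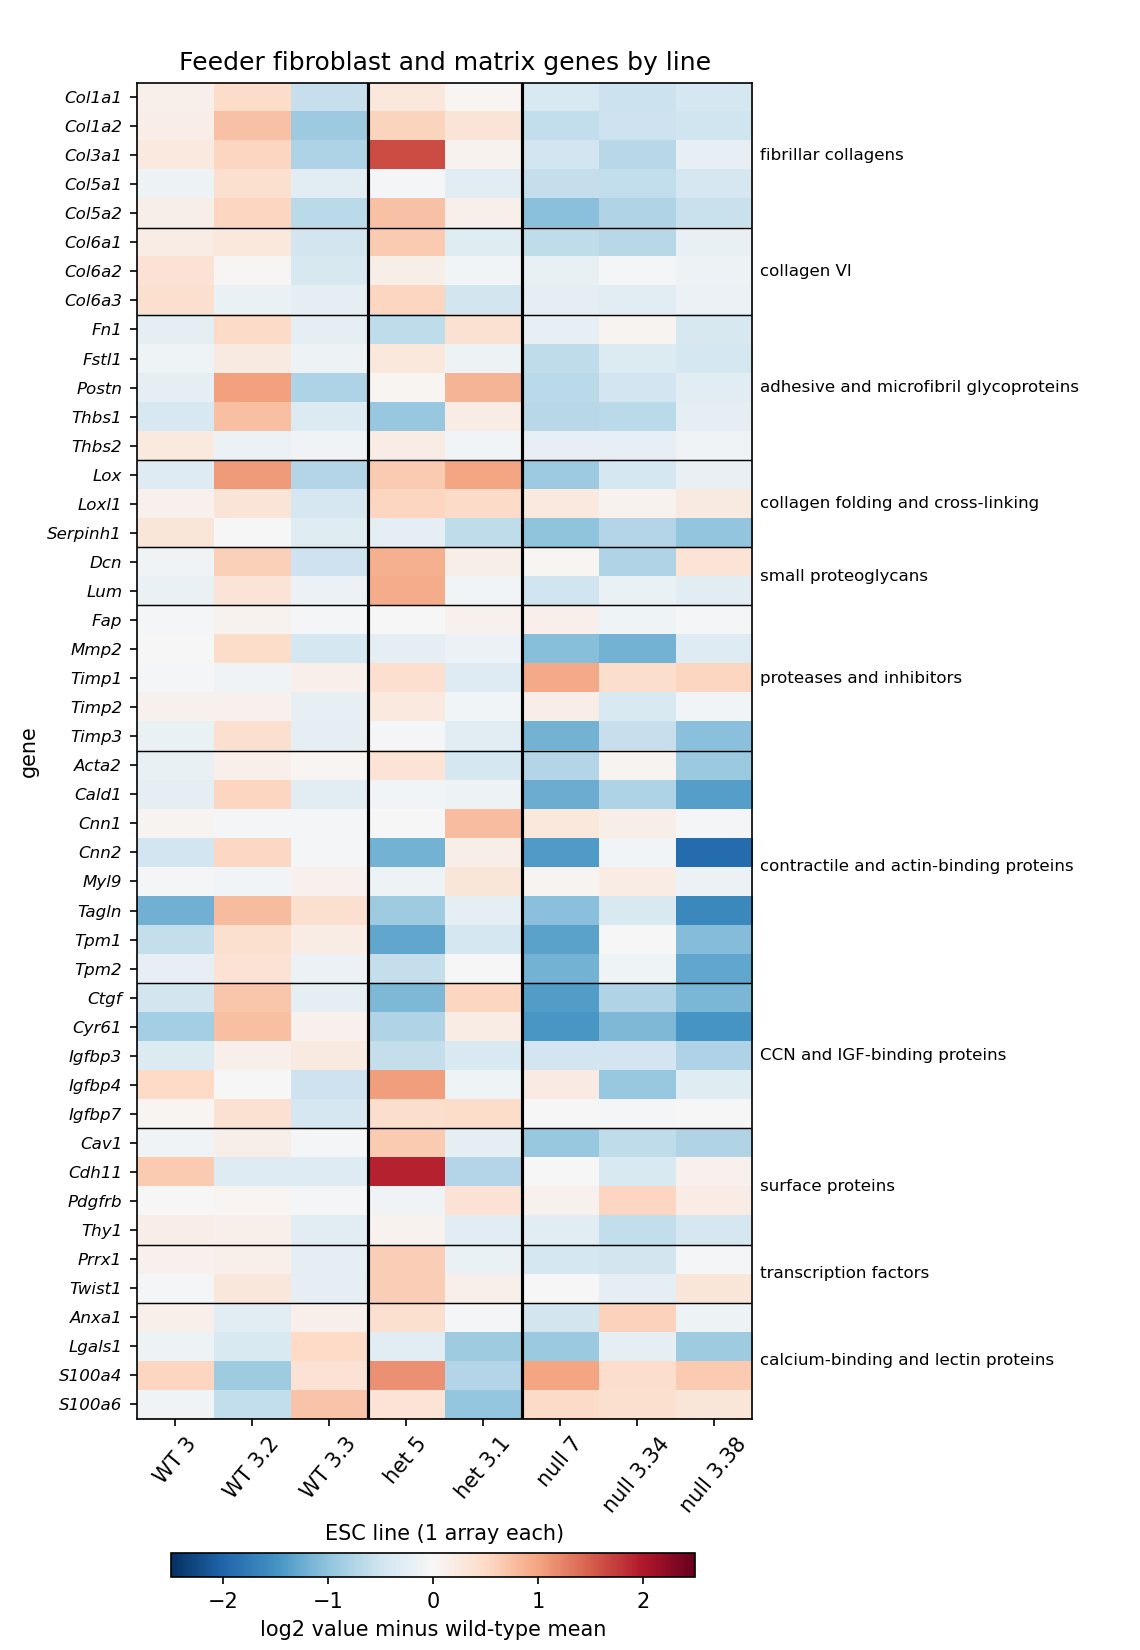
Log2 value of each of the 46 measured members in each of the 8 ESC lines, minus the wild-type mean of that gene, with blue below and red above that mean; rows are genes grouped by role and columns are lines, 1 array each. The null columns are mostly blue, the collagen block of wild-type line 3.3 is as blue as theirs, and the contractile block of null line 3.34 is pale.

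The fibrillar collagens are the rope-like proteins that give the matrix its strength, and all 5 members read lower in the null mean than in the wild-type mean, from -0.79 to -0.45 log2 units, with none past 2-fold and none passing the test. Col1a2, the second chain of collagen I, read 9.32, 9.88, 8.24, 9.71, 9.47, 8.53, 8.63 and 8.65. Wild-type line 3.3 was the lowest of the 8 lines, so the groups overlapped, and the difference of -0.54 (SE 0.35, limma adjusted p = 0.531) was within the spread of the wild-type lines (SD 0.83, n = 3). The null lines stood close together for this gene (SD 0.06, n = 3). Col3a1, the collagen III chain of loose connective tissue, read 6.61, 6.90, 5.59, 8.00, 6.45, 5.89, 5.67 and 6.16. Heterozygous line 5 was far above the other lines and wild-type line 3.3 was again the lowest, with a null minus wild-type difference of -0.46 (SE 0.43).

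Collagen V starts and limits the thickness of collagen I fibrils. Its chain Col5a2 read 7.31, 7.71, 6.49, 7.90, 7.30, 6.12, 6.42 and 6.62, a difference of -0.79 (SE 0.31, limma adjusted p = 0.246) in which wild-type line 3.3 lay among the null lines. Col5a1 read 7.81, 8.33, 7.66, 7.89, 7.68, 7.33, 7.31 and 7.51. It was the one fibrillar collagen whose null lines all lay below the wild-type lines, with a difference of -0.54 that did not pass the test (SE 0.18, limma adjusted p = 0.166). Another Col5a1 probe set, present in 7 lines, differed by -0.24.

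Collagen VI forms beaded filaments around cells, and its 3 chains read lower in the null mean by smaller amounts, with a median of -0.23. Col6a1 read 6.82, 6.89, 6.17, 7.28, 6.33, 5.98, 5.94 and 6.44, a difference of -0.51 (SE 0.28). Col6a3 read 6.44, 5.86, 5.79, 6.57, 5.56, 5.78, 5.74 and 5.88, a difference of -0.23 (SE 0.26). Both overlapped between the genotypes, with heterozygous line 5 highest of the 8.

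Across the 8 collagen chains, wild-type line 3.3 read below both other wild-type lines for 8 of 8, and at or below the highest null line for 7 of 8. The median of the fibrillar collagens, taken against the wild-type mean of each gene, was 0.14, 0.53 and -0.68 in the wild-type lines, 0.56 and 0.08 in the heterozygous lines and -0.60, -0.62 and -0.43 in the null lines. One wild-type line thus stood at the null level and the other 2 apart from it. Without wild-type line 3.3 the median difference of the fibrillar collagens between null and wild-type was -0.85, and Col1a2 differed by -0.99 (limma adjusted p = 0.0547) and Col5a2 by -1.13 (limma adjusted p = 0.0711). Without wild-type line 3.2 that median was -0.22, with Col1a2 at -0.17 and Col3a1 at -0.19. Within the litter pairs the collagens took opposite directions. All 8 chains were lower in null line 7 than in wild-type line 3, with Col1a2 at -0.79 and Col5a2 at -1.19, while 7 of 8 were higher in null line 3.38 than in wild-type line 3.3, with Col1a2 at 0.41 and Col5a2 at 0.13. Col5a1 alone was lower in both, at -0.47 and -0.14.

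**Figure D2:**
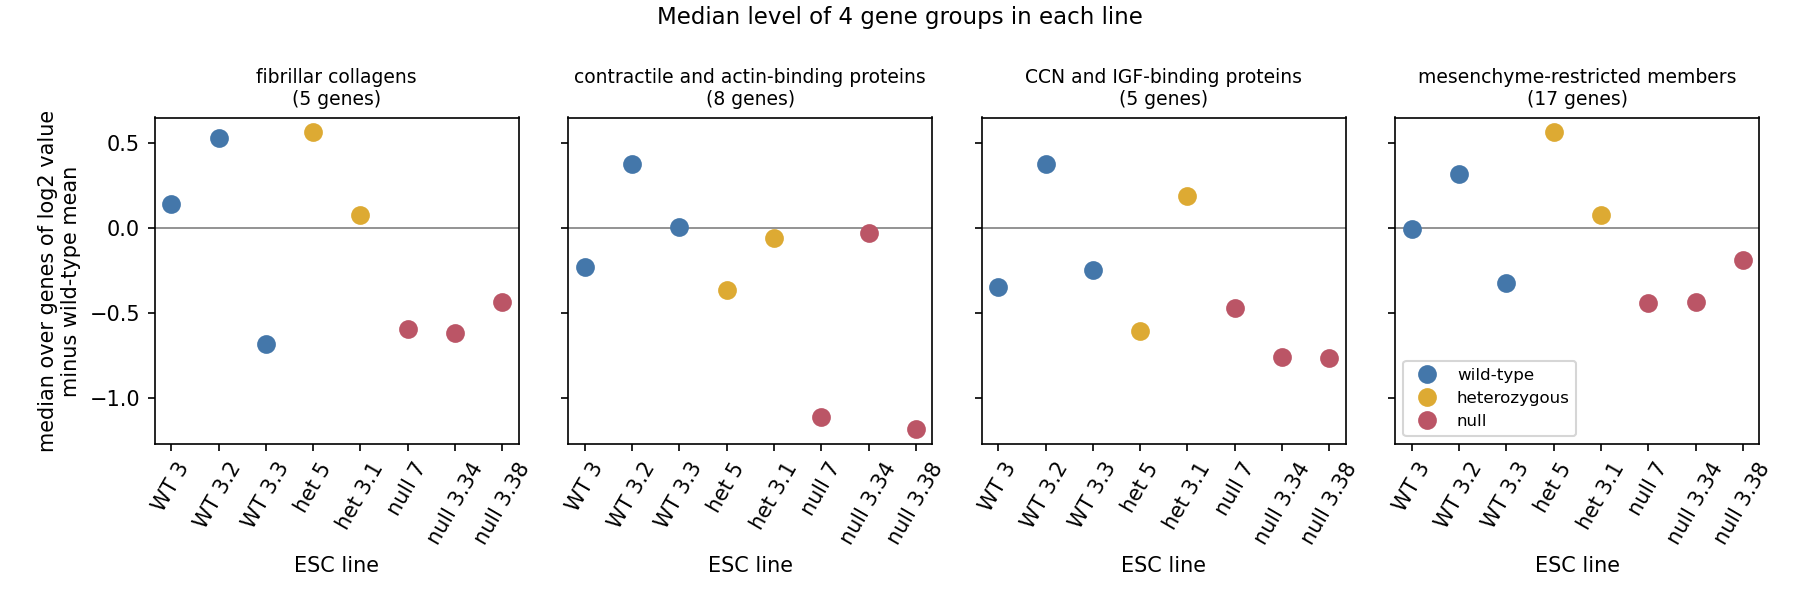
Median over the genes of 4 groups of the log2 value minus the wild-type mean of each gene (vertical axis, log2 units) in each ESC line (horizontal axis), 1 point a line, coloured by genotype. Fibrillar collagens of wild-type line 3.3 (-0.68) lie with those of the null lines, and contractile genes of null line 3.34 (-0.03) lie with those of the wild-type lines.

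Serpinh1, the chaperone of the endoplasmic reticulum that folds procollagen and is also known as Hsp47, gave the smallest p of the members. It read 7.93, 7.64, 7.32, 7.38, 6.99, 6.62, 6.89 and 6.63, so the null lines lay below all 5 others. The difference was -0.92 (SE 0.18, limma adjusted p = 0.0564), or 1.89-fold lower. A further Serpinh1 probe set, also present in all 8 lines, differed by -0.39. In limma fits without wild-type line 3.3 the adjusted p was 0.0440, and with only detected genes tested it was 0.0364, so the call lies at the threshold.

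Lox and Loxl1 encode enzymes that cross-link collagen and elastin. Lox read 7.13, 8.50, 6.71, 8.10, 8.44, 6.54, 7.01 and 7.26. Wild-type line 3.2 and both heterozygous lines were high and the other 5 lines low, with a null minus wild-type difference of -0.51 (SE 0.42) that became 0.02 without wild-type line 3.2. Another Lox probe set, present in 7 lines, differed by -0.12. Loxl1 read 4.15, 4.36, 3.62, 4.58, 4.52, 4.29, 4.13 and 4.27, near the detection limit, and was present in both heterozygous lines, 1 null line and no wild-type line.

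The adhesive glycoproteins link collagen to cell surfaces, and 5 of 5 measured members read lower in the null mean, with a median of -0.47 and none past 2-fold. Thbs1, thrombospondin 1, which binds matrix and activates latent TGF-beta, read 5.49, 6.65, 5.55, 4.96, 6.08, 5.20, 5.22 and 5.66 (difference -0.54, SE 0.37). Postn, periostin, which supports collagen cross-linking, read 5.18, 6.46, 4.66, 5.47, 6.29, 4.76, 4.95 and 5.16 (difference -0.48, SE 0.42). For both, wild-type line 3.2 and heterozygous line 3.1 were the 2 highest lines, and without wild-type line 3.2 the difference of Postn was 0.04. Fstl1, a secreted follistatin-like protein named here after its values were seen, had all null lines below all wild-type lines (difference -0.47, SE 0.15, limma adjusted p = 0.166). The second Fstl1 probe set, also present in all 8 lines, differed by -0.057.

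The small proteoglycans decorin and lumican coat collagen fibrils, and neither separated the null from the wild-type lines. Dcn read 6.21, 6.88, 5.78, 7.17, 6.43, 6.34, 5.55 and 6.64, a difference of -0.12 (SE 0.36) whose sign turned without null line 3.34 (0.20) or without wild-type line 3.2 (0.18). Lum read 4.08, 4.56, 4.09, 5.17, 4.18, 3.75, 4.08 and 3.96, so the null lines lay below both heterozygous lines, and it was present in 1 wild-type line, 1 heterozygous line and no null line. In both litter pairs Dcn was higher in the null line, by 0.13 and 0.86.

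Matrix-cutting enzymes and their inhibitors did not go one way. Timp3, the inhibitor that stays bound to the matrix, read 7.88, 8.44, 7.83, 7.99, 7.80, 6.87, 7.47 and 7.02, so the null lines lay below all others, with a difference of -0.93 (SE 0.21, limma adjusted p = 0.0723). Other Timp3 probe sets differed by -0.55 (present in 8 lines) and -0.026 (present in 7). Timp1, a secreted inhibitor of the same family singled out after its values were seen, read 7.97, 7.89, 8.11, 8.41, 7.66, 8.93, 8.43 and 8.53. Here the null lines lay above all others, although null line 3.34 exceeded heterozygous line 5 by a small margin only, and the difference was 0.64 (SE 0.21, limma adjusted p = 0.163). Mmp2, the gelatinase secreted by fibroblasts, read 6.32, 6.80, 5.90, 6.11, 6.19, 5.27, 5.15 and 6.01. Null line 3.38 lay above wild-type line 3.3, and the difference was -0.86 (SE 0.27, limma adjusted p = 0.160), but the probe set giving these values was called present in 1 of 8 lines. The other Mmp2 probe set, present in 5 lines, differed by -0.48.

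The contractile and actin-binding members held 3 of the 5 members past 2-fold. Cald1, caldesmon, which binds actin and restrains myosin, read 8.70, 9.48, 8.67, 8.89, 8.81, 7.71, 8.17 and 7.58. All null lines were below all other lines, by a mean against wild-type of 1.13 log2 units or 2.18-fold (SE 0.24, limma adjusted p = 0.0655). The other Cald1 probe sets present in all 8 lines differed by -1.18 and -0.56. Tested among detected genes only, Cald1 passed in limma (adjusted p = 0.0378). The litter pairs gave -0.99 and -1.09, and with litter as a block Cald1 passed as well (limma adjusted p = 0.0488).

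Cnn2, a calponin of non-muscle cells that steadies actin filaments, read 8.43, 9.42, 8.85, 7.72, 9.04, 7.48, 8.83 and 6.97. Null lines 7 and 3.38 were the 2 lowest of the 8, null line 3.34 stood at the level of the wild-type lines, and the difference was -1.14 (SE 0.51, limma adjusted p = 0.325). Tagln, transgelin, an early smooth muscle and myofibroblast protein, read 5.70, 7.69, 7.30, 6.01, 6.65, 5.86, 6.52 and 5.28, a difference of -1.01 (SE 0.51, limma adjusted p = 0.390) with wild-type line 3 as low as the null lines.

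Tropomyosins run along actin filaments and set which proteins reach them. Tpm1 read 7.29, 8.28, 8.06, 6.57, 7.43, 6.53, 7.88 and 6.80 (difference -0.81, SE 0.40), and Tpm2 read 8.41, 8.97, 8.47, 8.02, 8.63, 7.43, 8.51 and 7.33 (difference -0.86, SE 0.33). In both, null line 3.34 was inside the wild-type range and the other null lines below it. Other Tpm2 probe sets differed by -0.54, -0.28 and -0.10, present in 7, 7 and 5 lines. Line 3.34 is in neither litter pair, and within the pairs Tpm2 differed by -0.98 and -1.15 and passed with litter as a block (limma adjusted p = 0.0488).

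Null line 3.34 read above both other null lines for 6 of 6 contractile members that were called present, and within the range of the wild-type lines for 5 of those 6, the exception being Cald1. Null line 3.38 read below all wild-type lines for 6 of 6, and null line 7 for 5 of 6. The median of the 8 contractile members against the wild-type mean was -0.23, 0.38 and 0.01 in the wild-type lines, -0.36 and -0.06 in the heterozygous lines and -1.11, -0.03 and -1.18 in the null lines. Without null line 3.34 the median difference of these members between null and wild-type was -1.23, with 5 past 2-fold, Cnn2 at -1.67 (limma adjusted p = 0.112) and Tpm2 at -1.24 (limma adjusted p = 0.0589). Without wild-type line 3.2 it was -0.61 with 0 past 2-fold.

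CCN proteins are secreted matricellular proteins whose genes are textbook targets of tension signalling through YAP and TEAD factors. Cyr61, a CCN protein, gave the largest difference of the members. It read 7.20, 8.81, 8.16, 7.31, 8.25, 6.60, 6.95 and 6.58, so every null line lay below the other 5, with a difference of -1.35 or 2.55-fold lower (SE 0.39, limma adjusted p = 0.129). Leaving out 1 line at a time moved this from -1.78 to -0.98. Other Cyr61 probe sets differed by -1.25, -0.19 and -1.26, present in 6, 5 and 3 lines. The litter pairs gave -0.61 and -1.58. Ctgf, its close relative, read 9.21, 10.37, 9.42, 8.55, 10.20, 8.27, 8.91 and 8.53. Null and wild-type lines did not overlap, but heterozygous line 5 lay among the null lines, and the difference was -1.10 or 2.14-fold lower (SE 0.44, limma adjusted p = 0.260).

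IGF-binding proteins carry insulin-like growth factors outside the cell. Igfbp3 read 3.93, 4.41, 4.50, 3.67, 3.89, 3.80, 3.80 and 3.51. By any of its probe sets it was present in 3 of 3 wild-type lines and in no heterozygous or null line. The probe set giving these values was present in 2 lines. Its null mean was 1.49-fold lower (limma adjusted p = 0.138) and its heterozygous mean 1.41-fold lower than the wild-type mean. The null and heterozygous values are of undetected RNA, so these folds are not exact sizes. The other Igfbp3 probe set, present in 3 lines, differed from wild-type by -1.22 in null and -1.32 in heterozygous. Igfbp4 read 9.32, 8.84, 8.32, 9.87, 8.72, 9.04, 7.87 and 8.53, a difference of -0.35 (SE 0.39) on which its probe sets did not take one side, since others differed by 0.41 and 0.27.

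**Figure D3:**
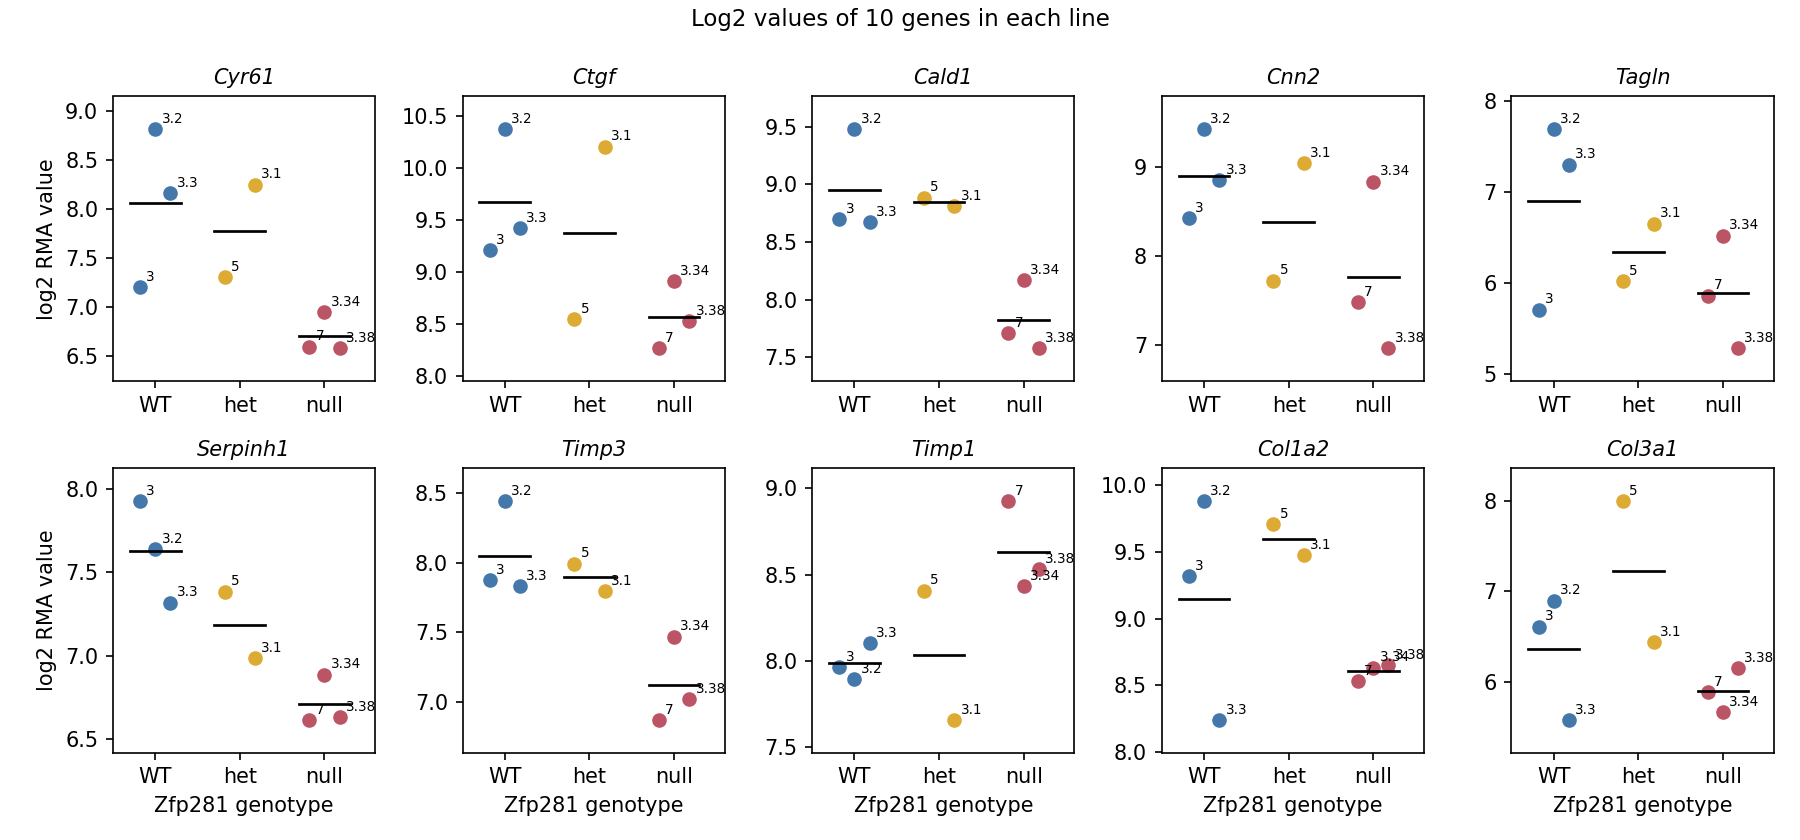
Log2 RMA value (vertical axis) of 10 members in each ESC line, grouped by Zfp281 genotype (horizontal axis); points are lines, labelled with their number, and the bar is the genotype mean. Cyr61, Cald1, Serpinh1 and Timp3 of all 3 null lines lie below the other 5 lines, Cnn2 of null line 3.34 and Col1a2 of wild-type line 3.3 lie away from their own genotype, and Timp1 is higher in the null lines.

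Promoter sequence was read for members of the contractile and CCN groups because 5 of them were past 2-fold. RefSeq promoter windows (build GRCm38.p6, 250 bases before to 50 bases after a transcript start) were matched for 30 of the 46 measured members, 34 windows in all. Ctgf and Tagln, 2 of the 5 members past 2-fold, were not among those matched. The letters GGAATG or their complement CATTCC, the core that TEAD factors bind, stood in 9 of the 34 (26.5%), against 14.7% of all 32851 windows, and in 4 of the 9 windows of contractile and CCN genes. Collagen genes held them in 2 of 7 windows (28.6%). A CArG box, the element that serum response factor binds, stood in 2 of the 34 (5.88%), against 1.63% of all windows, those of Cnn2 and Myl9. The letters TGANTCA of AP-1 stood in 5.88% of member windows and 7.81% of all, and GGGGNGGGG, a G-rich run, in 20.6% and 22.4%. Both strands were searched. A match is a description of the letters and shows no binding. The windows below are those of Cyr61, Cnn2 and Cald1, members past 2-fold with a match in capitals, and that of Col1a2, which held none of the 4 motifs. The Cyr61 match lies 103 bases before the start, that of Cnn2 (a CArG box) 56 and that of Cald1 153, and a second Cald1 window at chr6:34709194-34709493 held no GGAATG.
Cyr61, chr3:145649936-145650235, minus strand: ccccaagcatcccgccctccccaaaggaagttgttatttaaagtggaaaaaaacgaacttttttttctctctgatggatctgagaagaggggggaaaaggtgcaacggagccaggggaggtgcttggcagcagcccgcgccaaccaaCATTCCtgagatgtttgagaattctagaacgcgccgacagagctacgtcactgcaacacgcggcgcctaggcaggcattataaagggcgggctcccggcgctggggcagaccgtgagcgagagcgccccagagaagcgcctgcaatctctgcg
Cnn2, chr10:79988350-79988649, plus strand: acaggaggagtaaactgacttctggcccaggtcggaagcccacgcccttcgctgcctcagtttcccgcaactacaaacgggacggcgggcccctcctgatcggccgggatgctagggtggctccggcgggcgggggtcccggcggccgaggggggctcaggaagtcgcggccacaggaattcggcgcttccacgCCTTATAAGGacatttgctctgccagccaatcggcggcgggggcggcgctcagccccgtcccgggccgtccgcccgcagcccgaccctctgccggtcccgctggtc
Cald1, chr6:34598254-34598553, plus strand: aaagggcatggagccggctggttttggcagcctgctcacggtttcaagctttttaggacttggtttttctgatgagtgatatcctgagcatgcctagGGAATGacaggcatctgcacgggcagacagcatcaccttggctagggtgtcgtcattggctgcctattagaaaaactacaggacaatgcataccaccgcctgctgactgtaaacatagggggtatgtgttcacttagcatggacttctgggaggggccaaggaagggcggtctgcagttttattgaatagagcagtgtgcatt
Col1a2, chr6:4505368-4505667, plus strand: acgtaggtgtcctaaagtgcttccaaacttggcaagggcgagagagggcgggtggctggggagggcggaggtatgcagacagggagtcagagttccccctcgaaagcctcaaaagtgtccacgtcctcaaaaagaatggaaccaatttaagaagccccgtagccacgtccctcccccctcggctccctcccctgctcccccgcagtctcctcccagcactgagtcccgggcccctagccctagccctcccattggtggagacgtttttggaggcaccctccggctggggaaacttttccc

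Among the surface proteins, Cav1, caveolin 1, the coat protein of the membrane pits called caveolae, read 7.45, 7.68, 7.50, 8.19, 7.31, 6.60, 6.91 and 6.80. The null lines lay below all others, with a difference of -0.77 (SE 0.21, limma adjusted p = 0.113), and the spread within a genotype was small (SD 0.12 in wild-type, 0.16 in null, n = 3 each). In limma fits without heterozygous line 5, and likewise without line 3.1, Cav1 passed the threshold (adjusted p = 0.0495). Thy1, a membrane glycoprotein of fibroblasts, read 6.40, 6.36, 5.95, 6.32, 5.96, 5.98, 5.61 and 5.82, a difference of -0.43 (SE 0.17, limma adjusted p = 0.242) with wild-type line 3.3 inside the null range. Pdgfrb, the platelet-derived growth factor receptor of mesenchymal cells, named after its values were seen, was separate in the higher direction by 0.27, but the probe set used was called present in no line and another, present in 6 lines, differed by -0.38.

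Twist1 and Prrx1 are transcription factors of embryonic mesenchyme, and both lay near the detection limit. Twist1 read 3.74, 4.08, 3.55, 4.40, 3.92, 3.78, 3.56 and 4.10 (difference 0.03, SE 0.20), and Prrx1 read 4.65, 4.67, 4.33, 5.17, 4.38, 4.11, 4.09 and 4.50 (difference -0.32, SE 0.22). Heterozygous line 5 was the highest line for both. The probe sets of Prrx1 did not all take one side.

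The calcium-binding and lectin members went both ways, 2 lower and 2 higher in the null mean, with a median of 0.20. S100a4, a calcium-binding protein also called fibroblast-specific protein, read 7.71, 6.28, 7.52, 8.32, 6.44, 8.16, 7.61 and 7.82. Wild-type line 3.2 and heterozygous line 3.1, high for Postn, Thbs1 and Lox, were the 2 lowest lines here, and the difference was 0.69 (SE 0.51, limma adjusted p = 0.595). Lgals1, galectin 1, which binds sugars on matrix glycoproteins, read 10.34, 10.08, 10.97, 10.17, 9.58, 9.53, 10.24 and 9.57, a difference of -0.68 (SE 0.28, limma adjusted p = 0.276) with null line 3.34 inside the wild-type range. The second Lgals1 probe set, also present in all 8 lines, differed by -0.0053.

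**Figure D4:**
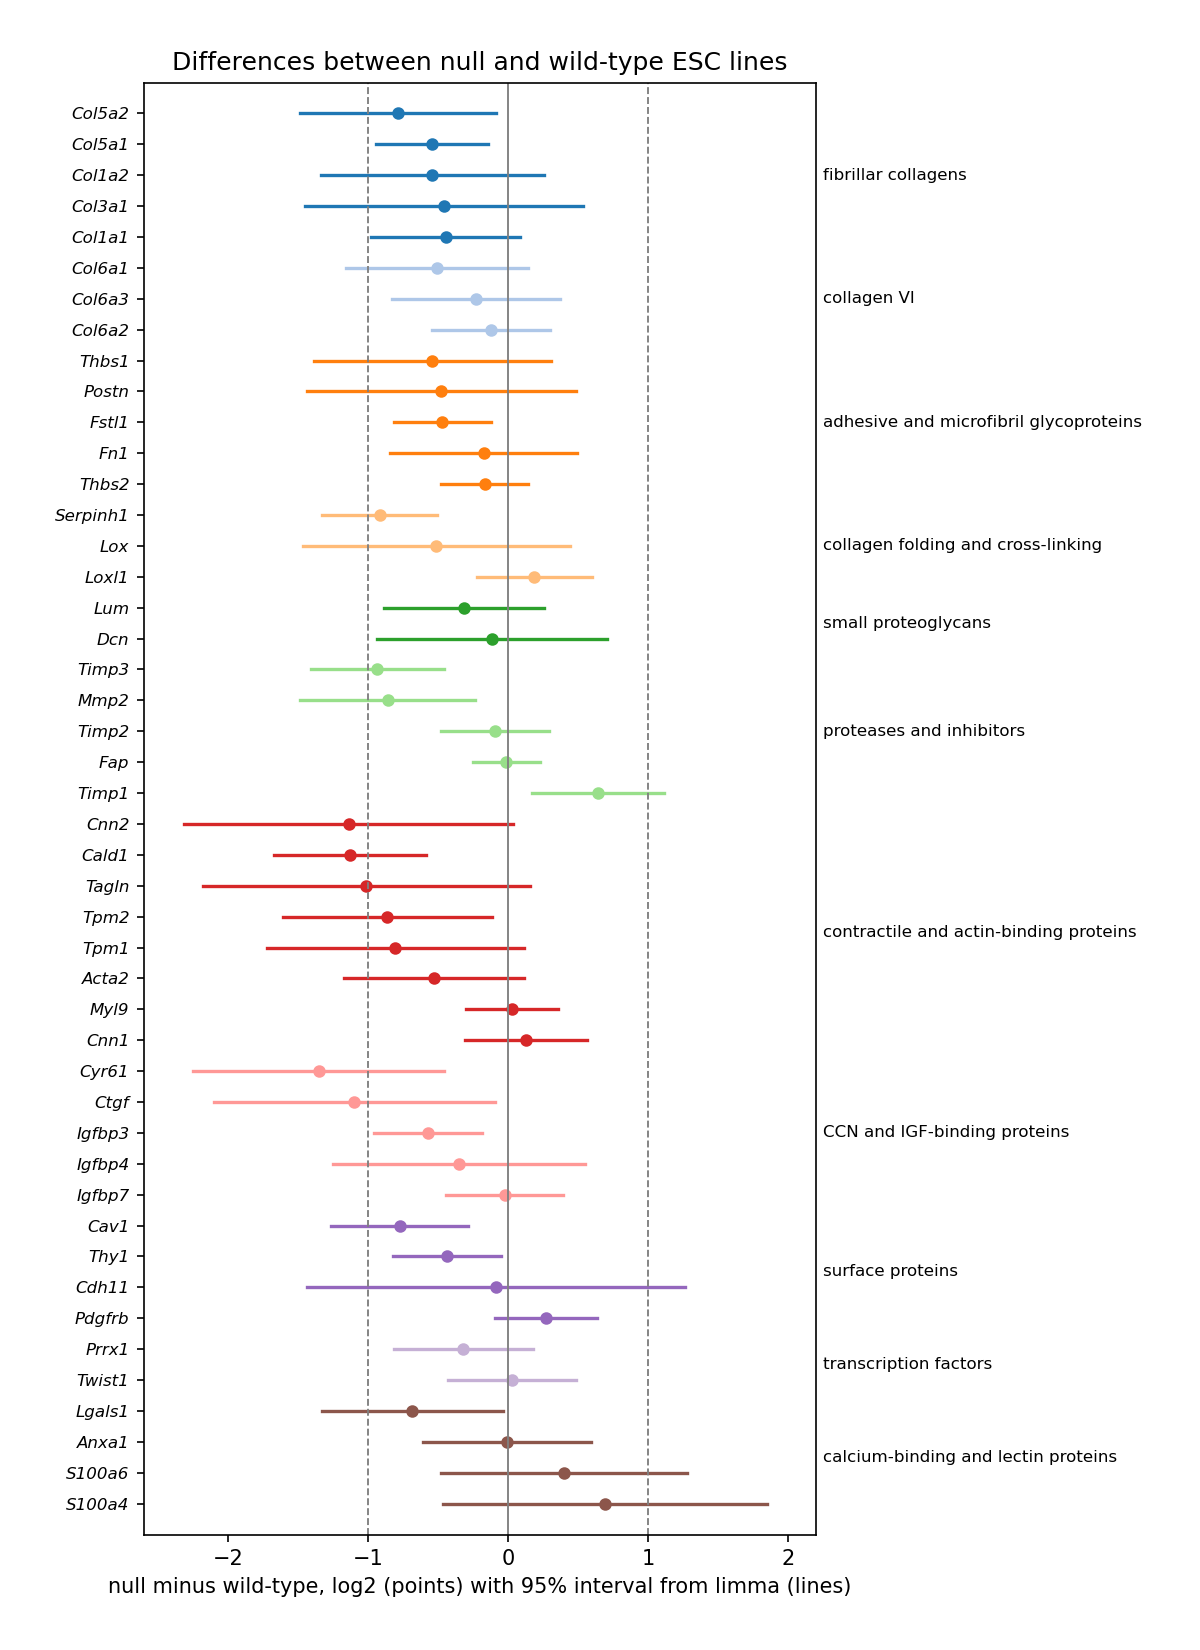
Difference of the null and wild-type means in log2 units (points, horizontal axis) with its 95% interval from limma (lines, unadjusted) for each of the 46 measured members, coloured and grouped by role; dashed lines mark 2-fold. Points past the lower dashed line are Cyr61, Cnn2, Cald1, Ctgf and Tagln, and none lies past the upper one.

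Of the members, 17 were listed as best known from mesenchymal cells, among them Col1a1, Col3a1, Col5a2, Dcn, Lum, Postn, Fap and Prrx1. The other 29 mix genes used by many cell types with genes of fibroblasts or smooth muscle, such as Thy1, Tagln, Cnn1 and Col5a1. The split was made with earlier results of these data known, so the 2 sets do not part mesenchymal genes from others cleanly. Of the 17, 15 read lower in the null mean, with a median of -0.32, 0 past 2-fold and 0 with all null lines below all wild-type lines. Of the 29, 23 read lower, with a median of -0.51, 5 past 2-fold and 9 with all null lines below. In each set 1 member had all null lines above all wild-type lines. Of all genes 53.2% read lower, 1.10% were past 2-fold lower, and 11.2% had all null lines below and 11.1% above. The summed linear signal of the 17 ran from 1566 to 3014 over the wild-type lines, from 2316 to 3132 over the heterozygous lines and from 1391 to 1660 over the null lines. The lowest wild-type value, of line 3.3, thus lay inside the null range. The 17 had 10 to 16 members called present in a wild-type line, 14 to 16 in a heterozygous line and 12 to 15 in a null line. Over all 46 members the null sums, 7847 to 9852, lay below those of all other lines. The heterozygous sums, 11412 to 11613, lay inside the wild-type range of 10662 to 14302. A sum of linear values weighs the brightest members most, Fn1, Lgals1 and Ctgf among them.

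A further list of 63 matrix and fibroblast genes that are no members, 59 of them measured, was read in the same fit. Its median difference between null and wild-type was -0.07, 37 were lower, none was called by limma (7 lower at an unadjusted p under 0.05 and 0 higher) and none was past 2-fold, though 16 had all null lines below all wild-type lines and 0 above, against 11.2% and 11.1% of all genes. Over its 28 detected genes the median was -0.14, with 20 lower and 8 separate in the lower direction, against 15.8% of all detected genes. Markers of other cells differed between the same lines. Of 23 measured ESC markers 3 were called higher in the null lines by limma and 0 lower, against 0.693% and 0.440% of all genes. The null mean was higher for 19 and lower for 4, with 5 past 2-fold higher and 1 past 2-fold lower (-2.62). The summed signal of the 23 was 11748 to 16349 in wild-type, 14679 to 16187 in heterozygous and 22446 to 24740 in null lines. Of 20 measured endoderm and basement membrane markers 16 had a lower null mean, 1 of them called by limma, Lamb1 (difference -1.25, SE 0.20, adjusted p = 0.0384), a laminin chain of basement membranes. The other 4 had a higher null mean, and 3 were past 2-fold lower and 1 past 2-fold higher. This list mixes endoderm factors with laminin and collagen IV chains, and its Sparc and Pdgfra are also in the further list. By quantitative RT-PCR the study found the endoderm markers Gata6, Gata4 and Hnf4 raised in heterozygous and null ESCs. It also reported Gata6, Cxcr4 and Sox17 raised in null ESCs by quantitative PCR. Array values of these single markers are not given here, and the count over the list does not say which way each went. The sum over these 20 endoderm and basement membrane markers was 2034 to 4283 in wild-type, 1437 to 2230 in heterozygous and 1453 to 1945 in null lines. Macrophage markers, 10 measured with none called (0 at an unadjusted p under 0.05 in limma), had sums of 580 to 711, 588 to 865 and 601 to 1081. The part of the ESC and endoderm markers in the members' lower null means was not tested. The 3′ minus 5′ control signal also separated the null lines, and with it as a covariate the members' median was -0.20 with 3 past 2-fold, counting both directions. Those 3 need not be among the members past 2-fold without the covariate.

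Heterozygous lines were compared with wild-type lines to ask whether 1 copy of the gene goes with an intermediate level. No member was called by limma (smallest adjusted p 0.997, with 1 lower and 1 higher at an unadjusted p under 0.05, against 2.18% and 1.67% of all genes), where 0% of all genes were called in either direction, and none was past 2-fold, against 0.209% of all genes lower and 0.126% higher. The median over members was 0.07, and 18 of 46 had a lower heterozygous mean and 28 a higher one, against 48.7% and 51.3% of all genes. Both heterozygous lines lay below all wild-type lines for Igfbp3 alone and above them for Loxl1 and Igfbp7, the latter an IGF-binding protein of vessels and stroma named after its values were seen. For all genes these shares were 8.83% and 8.44%. The 2 heterozygous lines differed from each other. Line 5 was the highest of the 8 lines for 16 members and line 3.1 for 3, and Cdh11, a cadherin of mesenchymal cells singled out after its values were seen, read 6.53 in line 5 and 3.87 in line 3.1. Without heterozygous line 3.1, 7 members were past 2-fold, 3 lower and 4 higher.

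Null lines compared with heterozygous lines gave a different order of genes, led by collagens and Lox. Lox differed by -1.34 (SE 0.47), Col3a1 by -1.31 (SE 0.48), Col5a2 by -1.22 (SE 0.34), Cyr61 by -1.07 (SE 0.44) and Cald1 by -1.03 (SE 0.27), the 5 members past 2-fold, where 0.660% of all genes were past 2-fold lower and 1.76% higher. Col1a2 followed at -0.99. For each of these 6 every null line lay below both heterozygous lines. In all, 18 members were separate in the lower direction and 1 in the higher one, against 14.5% and 13.3% of all genes, and 41 had a lower null mean and 5 a higher one, against 55.0% and 45.0%. The median was -0.47. None was called by limma (13 lower and 1 higher at an unadjusted p under 0.05, against 6.16% and 7.65% of all genes), where 0% of all genes were called, with the smallest adjusted p, 0.112, for Cav1. Without heterozygous line 3.1, 10 members were past 2-fold, and without wild-type line 3.2, which enters only through the shared spread, limma called Cald1 and Lox. The comparisons share lines, the wild-type ones between the first and the second, the null ones between the first and the third and the heterozygous ones between the second and the third, so they are not independent of each other.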

How the data were processed

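Each of the 8 ESC lines gave total RNA for 1 Affymetrix array. RMA normalisation by the authors gave the deposited log2 values, and for each array the authors also deposited a signal intensity, a present or absent call and its detection p-value. Genotype and line came from the sample labels, and replicate numbers follow the order of the samples only. The litter of 4 lines came from the study's text. Deviations from the genotype means correlated at 0.097 between lines 7 and 3 and 0.038 between lines 3.38 and 3.3, over 18193 genes that are not independent. Between null and wild-type lines that the study does not name as litter pairs the correlation ran from -0.114 to 0.095. The value for lines 7 and 3 was the highest, by a small margin. The litters of the other lines are not stated, and deviations within a genotype constrain each other. These correlations therefore cannot show whether litter matters. Of 45101 probe sets, 34945 listed 1 gene, 932 several and 9160 none in the platform annotation, and control probe sets (64) were left out; 34741 were matched to current symbols by Entrez identifier, and the probe set with the highest mean stood for each of 18193 genes. Differences between genotype means were fitted with limma (version 3.58.1, R 4.3.3) over all 8 arrays with 1 shared spread, without a covariate, and p-values were adjusted by Benjamini-Hochberg over all genes. The threshold was an adjusted p of 0.05, and 2-fold was a log2 difference past 1, following the study's methods. RMA pulls weak signals together, so differences of dim genes are understated, and the number of lines, 2 or 3 a genotype, limits the precision. The authors' arrays differ in 3′ minus 5′ control signal, which was tried as a covariate. Other alternatives averaged a gene's probe sets, used the signal intensities, kept only detected genes, fitted only the genotypes compared, left out lines, or, added after the data were seen, took litter as a block over those 4 lines.

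The members and all gene lists were chosen with earlier results of these data known. Values by line are given for members past 2-fold or past the adjusted p in any comparison and, of the remaining members of each role, for the 2 with the largest null minus wild-type difference, and the others are given by range and count or named as chosen after their values were seen. Lists of mesoderm, endothelial and skeletal or cardiac muscle markers were read as well. Between null and wild-type limma called 0 of the 11 mesoderm markers measured, 1 of 10 muscle markers, higher in null, and 1 of 8 endothelial markers, lower in null. Of all genes 0.440% were called lower and 0.693% higher. Promoter letters came from the RefSeq table of GRCm38.p6. Figures were drawn with matplotlib 3.10.9.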

Additional observations from a re-analysis of the deposited data

How the results depend on the processing

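With litter as a block over the 4 lines of the litter pairs, an alternative chosen after seeing the data with 1 residual degree of freedom a gene, 2 members were called in null against wild-type (Cald1 and Tpm2), the median was -0.21, and Dcn was 0.49 and Postn 0.041; lines 3.2 and 3.34 and both heterozygous lines drop out of that fit. No other comparison could be paired, since the sources used here pair no further lines. The count of called members in null against wild-type, 0 in the report, was 3 with only detected genes tested (Serpinh1, Cald1 and Timp3), 1 with only the 2 genotypes compared (Cav1), and 0 to 1 on leaving out 1 line. The count past 2-fold was 10 with the signal intensities, 3 with the 3′ minus 5′ covariate, 0 without both arrays of the lowest present share (wild-type line 3.2 and heterozygous line 3.1), and 0 to 9 on leaving out 1 line. The median was -0.25 with probe sets averaged, -0.20 with the covariate, -0.25 without both arrays and -0.52 to -0.25 on leaving out 1 line. For heterozygous against wild-type the count past 2-fold was 5 with the signal intensities, 8 without both arrays and 0 to 7 on leaving out 1 line, and no member was called under any alternative. For null against heterozygous it was 0 with probe sets averaged, 10 with the signal intensities, 3 with the covariate, 10 without both arrays and 5 to 10 on leaving out 1 line, the median was -0.27 with probe sets averaged and -0.23 with the covariate, and the count of called members was 1 with only the 2 genotypes (Col1a2) and 0 to 2 on leaving out 1 line. Single genes changed sign in null minus wild-type. With the covariate Col1a2 was 0.24, Lox 0.61, S100a4 -0.39, Postn 0.53, Tpm1 0.073 and Thbs1 0.089; with both arrays left out Lox was 0.017, Dcn 0.18 and Postn 0.038; with probe sets averaged Igfbp4 was 0.068. On leaving out 1 line Lox ran from -0.88 to 0.017, Dcn from -0.37 to 0.20, Postn from -0.86 to 0.038, Loxl1 from -0.025 to 0.35 and Twist1 from -0.12 to 0.17. Others kept their sign but changed in size. Over all alternatives Ctgf ran from -1.33 to -0.11, Cnn2 from -1.67 to -0.20 and Tpm2 from -1.24 to -0.0059. Cyr61 ran from -1.78 to -0.98, Cald1 from -1.30 to -0.58 and Tagln from -1.61 to -0.62. The cause of these shifts was not tested. Apart from the sign changes, 478 values for single named genes under an alternative kept their sign and side of the threshold and 9 passed the threshold. No member passed in the main fit, so keeping the side meant staying uncalled, whatever the size of the difference.

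With the 3′ minus 5′ covariate limma's adjusted p lay near 1 for the named members; the covariate separates the null lines from the rest, so it and genotype cannot be told apart.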
